A study of Mus musculus with 42 samples.

Results

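Genes of hepatic glucose output and insulin sensing were followed over the day on the AIN93G diet and the HFD. The genes were Pck1, G6pc, Fbp1, Insr, Irs1, Irs2, Igfbp1, Foxo1 and Ppargc1a, 9 of the 54532 genes of the count table, and each was found by its name under 1 identifier. They were followed in the 32 of 42 libraries that hold liver RNA by a rule of an Alb (albumin) level over 10000 CPM, the count scaled to the library total. The study examined how dietary fat alters daily rhythms of transcripts in liver during puberty. Female C57BL/6 mice (C57BL/6NHsd in the methods of the study) were weaned at 3 weeks and then given 1 of 2 diets for 3 weeks. Soybean oil supplied 16% of the energy of the standard diet (AIN93G) and 45% of that of the modified one (HFD). Livers were taken without prior fasting every 4 h from Zeitgeber time (ZT) 0, when the lights came on, through lights off (ZT 12) to ZT 24, and poly(A) RNA of 3 livers per diet and time was sequenced. All mice were intact, unmodified animals of 1 strain and 1 sex, and no gene was targeted. The labels carry no animal numbers, so the p-values given here measure the spread between these libraries.

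The liver releases glucose between meals by making it from lactate, glycerol and amino acids. PCK1 turns oxaloacetate into phosphoenolpyruvate, FBP1 removes a phosphate from fructose 1,6-bisphosphate, and G6PC releases free glucose from glucose 6-phosphate in the endoplasmic reticulum. Insulin binds its receptor (INSR), which phosphorylates the substrates IRS1 and IRS2 and, through AKT, keeps the transcription factor FOXO1 out of the nucleus. In the fasted liver, FOXO1 and the coactivator PGC-1alpha (Ppargc1a) raise Pck1, G6pc and Igfbp1, which encodes a secreted binding protein of insulin-like growth factors, and FOXO1 also raises Irs2.

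Before the results, the libraries that stand apart are described. The 42 libraries held 14592481 to 21368409 counts. In 10 libraries labelled as liver, 8 of AIN93G (all of ZT 16 and ZT 20, and 2 of ZT 24) and 2 of HFD at ZT 24, Alb was at most 81.0 CPM, the summed level of 12 hepatocyte genes was 613 to 1533 CPM and that of 8 adipocyte genes was 22853 to 34519 CPM. In the 32 liver libraries Alb was 66434 to 111995 CPM, the hepatocyte sum was 118280 to 166937 CPM and the adipocyte sum was 22.6 to 171 CPM. Liver libraries thus remained for both diets with 3 each at ZT 0, 4, 8 and 12, for the HFD alone at ZT 16 and ZT 20, and with 1 per diet at ZT 24. Of the 6 libraries of ZT 12, the labels place 4 in the dark phase and 2 in the light phase. The clock gene Arntl (Bmal1) had 0.943 to 1.76 CPM in 3 of these, AIN93G replicate 1 and HFD replicates 1 and 2, and 38.5 to 46.5 CPM in the other 3, while its level was 1.22 to 2.48 CPM at ZT 8 and 20.1 to 26.6 CPM at ZT 16. AIN93G ZT 12 replicate 3 carries the dark label and has the high Arntl level. Arntl was 38.9 to 45.9 CPM at ZT 0 and 40.04 to 42.3 CPM at ZT 20, near that of the high libraries of ZT 12, and 0.782 and 1.15 CPM in the liver libraries of ZT 24, near that of the low ones. Whether the labelled times hold for the libraries of ZT 12 and ZT 24 was not tested, and values of these times are those of the libraries so labelled. In bulk RNA, fewer cells of a type and less RNA per cell cannot be told apart.

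The stretches before the start sites of 4 members are shown because these genes carried the widest daily ranges or the most studied hormone response sites. Of the 9 members, 8 had an entry in the RefSeq table of promoters (GRCm38.p6), and Insr had none. Capitals mark matches to 2 short motifs, CAAAACA, the core of the insulin response element, and TTACGTNA, which resembles the cyclic AMP response element, and to the E-box CACGTG in Irs2. Motifs were searched on both strands, and they were chosen after the sequences had been seen. The Pck1 stretch is chr2:173152823-173153047 (+), the G6pc stretch chr11:101367466-101367585 (+), the Irs2 stretch chr8:11008930-11009179 (-) and the Igfbp1 stretch chr11:7197537-7197781 (+). Each begins 250 bases before the RefSeq start of its gene.
Pck1: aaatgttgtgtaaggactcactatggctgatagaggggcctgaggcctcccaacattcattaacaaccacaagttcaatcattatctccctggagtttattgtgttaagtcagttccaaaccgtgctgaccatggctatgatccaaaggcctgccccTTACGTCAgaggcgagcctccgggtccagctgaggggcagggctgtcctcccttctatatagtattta
G6pc: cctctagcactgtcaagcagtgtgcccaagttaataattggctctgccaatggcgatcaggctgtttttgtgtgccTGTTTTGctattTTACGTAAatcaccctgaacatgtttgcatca
Irs2: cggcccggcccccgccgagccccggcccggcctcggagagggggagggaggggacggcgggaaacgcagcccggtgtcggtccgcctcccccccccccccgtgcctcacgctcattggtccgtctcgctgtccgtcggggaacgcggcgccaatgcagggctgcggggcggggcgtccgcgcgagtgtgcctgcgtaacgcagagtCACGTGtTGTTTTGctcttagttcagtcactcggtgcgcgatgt
Igfbp1: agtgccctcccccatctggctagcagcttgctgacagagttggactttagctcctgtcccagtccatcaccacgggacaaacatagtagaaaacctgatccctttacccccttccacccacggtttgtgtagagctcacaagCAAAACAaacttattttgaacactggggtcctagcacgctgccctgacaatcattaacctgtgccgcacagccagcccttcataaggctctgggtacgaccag
CAAAACA or its reverse complement TGTTTTG lay before G6pc, Irs1, Irs2 and Igfbp1, and 5.56% of the 32851 windows of 250 bases in the table hold it. TTACGTNA lay before Pck1 at position -93 and before G6pc at position -162, and 0.788% of all windows hold it. The match before Pck1 contains ACGTCA, which 6.47% of windows hold and which also lay before Ppargc1a. CACGTG lay before Irs1 and Irs2, beside a background of 6.02%, and GTAAACA, a forkhead motif held by 3.17% of windows, was in none of the 8. The RefSeq start of Irs2 lies upstream of the Irs2 gene model of the count table, and the last bases of the G6pc stretch lie inside the G6pc model.

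Per kilobase of exon, the median level over the 32 liver libraries was highest for Pck1 (865 CPM per kb), followed by Fbp1 (683), G6pc (235) and Igfbp1 (77.3). The receptor Insr had a median of 12.2 CPM per kb, and Irs2 (5.58), Foxo1 (3.99), Ppargc1a (2.04) and Irs1 (1.80) were lower. The enzymes and the secreted protein therefore stood above the receptor, its substrates and the regulators by this measure. The spread between libraries of the same diet and time also differed among the genes. On the log2 scale the SD within groups was 1.04 for Igfbp1 and 0.59 for Pck1, against 0.21 for Fbp1, 0.20 for Insr and a median of 0.26 over the 12000 genes tested.

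In GRCm38 the genes of the enzymes lie at chr2:173153048-173159273 (Pck1), chr11:101367561-101377903 (G6pc) and chr13:62864753-62888282 (Fbp1). Those of the receptor and its substrates lie at chr8:3122061-3279617 (Insr), chr1:82233101-82291416 (Irs1) and chr8:10984681-11008458 (Irs2). Igfbp1 lies at chr11:7197782-7202546, Foxo1 at chr3:52268336-52353221 and Ppargc1a at chr5:51454250-51567726. All 9 are protein-coding and were detected in all 32 liver libraries, and all 9 passed the filter on low counts.

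**Figure D1:**
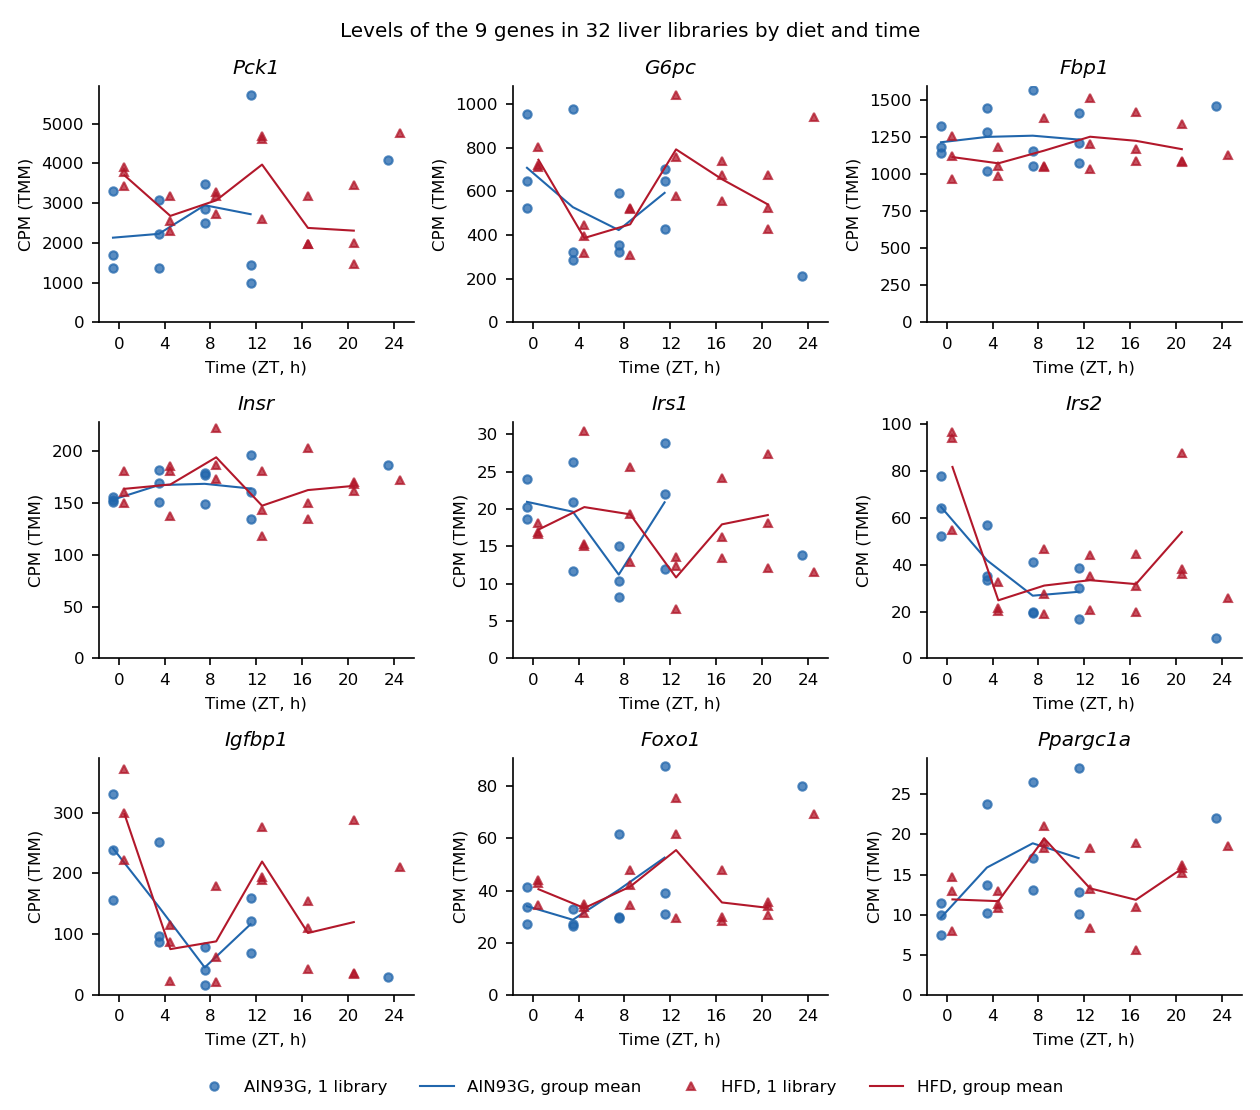
Levels (CPM after TMM scaling, linear axes from 0) of the 9 genes against time in the 32 liver libraries. Each point is 1 library, circles are AIN93G and triangles are HFD, lines join the means of groups of 3, and the single libraries of ZT 24 are not joined. On both diets the points of Irs2 and Igfbp1 lie lower at ZT 8 than at ZT 0, whereas the points of Fbp1 and Insr stayed within narrow bands at all times.

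Pck1 was the most abundant of the enzymes. At ZT 0, Pck1 had 1701, 3312 and 1373 CPM in the 3 AIN93G libraries and 3894, 3771 and 3424 CPM in the 3 HFD libraries. Every HFD library lay above every AIN93G library at this time, as was the case for 6.74% of the 12000 genes. The fitted difference (HFD minus AIN93G) was 0.80 (SE 0.45) on the log2 scale, with an adjusted p of 0.999 by the quasi-likelihood test of edgeR. It was 0.56 without AIN93G ZT 0 replicate 3 and 1.27 without AIN93G ZT 0 replicate 2. At ZT 4 Pck1 had 2218, 3086 and 1369 CPM on AIN93G and 2541, 3188 and 2299 CPM on the HFD, and the groups overlapped. At ZT 8 the values were 3487, 2843 and 2504 CPM against 3281, 3185 and 2737 CPM, again with overlap. At ZT 12 they were 5709, 1000.4 and 1449 CPM on AIN93G and 4689.6, 4615 and 2597 CPM on the HFD. The AIN93G libraries of ZT 12 thus held both the highest and the lowest Pck1 level of the 32 liver libraries. On the HFD, Pck1 had 1974, 3169 and 1979 CPM at ZT 16 and 1474, 1996 and 3446 CPM at ZT 20. At ZT 24 the single libraries had 4077 CPM on AIN93G and 4760.1 CPM on the HFD, both above all libraries of ZT 16 and ZT 20.

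Averaged over ZT 0, 4, 8 and 12, the log2 difference in Pck1 (HFD minus AIN93G) was 0.42 (SE 0.22, 95% interval -0.02 to 0.86), with an adjusted p of 0.615 by edgeR. None of the 9 members passed in this test of diet, in which 0.108% of all genes (13) passed an adjusted p of 0.05 by edgeR, and 1007 had an unadjusted p under 0.05. Pck1 did not pass by DESeq2 either (adjusted p of 0.596), where 83 genes passed. The difference in Pck1 was 0.38 without ZT 12 (adjusted p of 0.393 by edgeR). Without ZT 12 the averaged differences of the other members were -0.15 (Fbp1) to 0.19 (Irs1), with G6pc at -0.09, Irs2 at -0.06, Ppargc1a at -0.03, Insr at 0.11, Igfbp1 at 0.11 and Foxo1 at 0.17, and none passed. With ZT 12 included, the differences were 0.03 for G6pc, -0.10 for Irs1, 0.01 for Irs2 and 0.31 for Igfbp1. The signs of G6pc, Irs1 and Irs2 thus changed with ZT 12 left out. Without AIN93G ZT 12 replicate 1 alone the difference in Pck1 was 0.71 with an adjusted p of 0.0292 by edgeR, and the difference at ZT 12 was then 1.70 (adjusted p of 0.0410) instead of 0.54 (adjusted p of 0.769). It was 0.15 (adjusted p of 0.972) without AIN93G ZT 12 replicate 2 and 0.24 (adjusted p of 0.966) without AIN93G ZT 12 replicate 3. AIN93G ZT 12 replicate 1 was the only one of its diet at ZT 12 with low Arntl and high Pck1, and without it 2 such libraries on the HFD were set against none on AIN93G, so that diet and Arntl level at ZT 12 cannot be told apart in these values.

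G6pc, which carries out the last step of glucose release, did not pass the test of diet and was lower at ZT 8 than at ZT 0 in the means of both diets. At ZT 0, G6pc had 648, 954 and 522 CPM on AIN93G and 721, 802 and 713 CPM on the HFD. At ZT 8 it had 591, 354 and 324 CPM on AIN93G and 518, 522 and 309 CPM on the HFD. On the HFD all libraries of ZT 8 lay below those of ZT 0, as was the case for 11.1% of all genes, while on AIN93G the libraries of these times overlapped. The fitted change from ZT 0 to ZT 8 was -0.74 (SE 0.35, adjusted p of 0.314 by edgeR) on AIN93G and -0.73 (SE 0.35, adjusted p of 0.277 by edgeR) on the HFD. The AIN93G change was -0.47 without AIN93G ZT 0 replicate 2 and -1.06 without AIN93G ZT 8 replicate 1. At ZT 4, G6pc had 322, 978 and 283 CPM on AIN93G and 396, 448 and 315 CPM on the HFD, and 1 AIN93G library was far above the other 5. At ZT 12 it had 429, 704 and 647 CPM on AIN93G and 1042, 579.7 and 757 CPM on the HFD. On the HFD it had 674, 739 and 556 CPM at ZT 16 and 426, 522 and 673 CPM at ZT 20, so that its lowest group means on this diet were those of ZT 4 and ZT 8. The single libraries of ZT 24 had 212 CPM on AIN93G, the lowest of all liver libraries, and 941 CPM on the HFD. The difference between diets over ZT 0 to ZT 12 was 0.03 (SE 0.18, 95% interval -0.31 to 0.38) on the log2 scale.

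Fbp1, the fructose-bisphosphatase, was the steadiest of the enzymes, with a range of 964 to 1565 CPM over the 32 liver libraries. Its group means for 3 libraries lay between 1073 CPM (HFD, ZT 4) and 1259 CPM (AIN93G, ZT 8). The difference between diets was -0.11 (SE 0.09, 95% interval -0.28 to 0.06) on the log2 scale, with an adjusted p of 0.766 by edgeR. The widest difference between group means over the day was 0.05 on AIN93G (ZT 0 to ZT 12) and 0.22 on the HFD (ZT 0 to ZT 20) on the log2 scale, below the medians of all genes (0.32 and 0.52).

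Insr, which encodes the insulin receptor, had 118 to 222 CPM over the liver libraries. Its values at ZT 8 on the HFD were 173, 186 and 222 CPM, and at ZT 12 on the HFD they were 143, 180.0 and 118 CPM. These were the highest and the lowest group means, and their libraries overlapped. The difference in Insr between diets was 0.04 (SE 0.08, 95% interval -0.13 to 0.20) on the log2 scale.

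Irs2, the substrate that FOXO1 is known to raise, changed most clearly over the day. At ZT 0, Irs2 had 64.2, 77.9 and 52.1 CPM on AIN93G and 54.9, 96.6 and 94.1 CPM on the HFD. At ZT 4 it had 35.4, 57.1 and 33.4 CPM on AIN93G and 20.4, 21.4 and 32.8 CPM on the HFD. At ZT 8 it had 41.4, 19.8 and 19.3 CPM on AIN93G and 19.1, 46.8 and 27.5 CPM on the HFD. All 6 libraries of ZT 8 lay below all 6 of ZT 0, and within a diet 11.8% (AIN93G) and 11.1% (HFD) of all genes separated in this direction. At ZT 12 the values were 16.7, 30.03 and 38.8 CPM on AIN93G and 35.2, 20.8 and 44.4 CPM on the HFD, which overlapped those of ZT 8. On the HFD, Irs2 had 19.7, 44.7 and 30.98 CPM at ZT 16 and 38.2, 36.1 and 87.8 CPM at ZT 20. The HFD group means were therefore highest at ZT 0 (81.8 ± 23.4 CPM, SD, n = 3) and lowest at ZT 4 (24.9 ± 6.89 CPM, SD, n = 3), and the groups from ZT 4 to ZT 16 overlapped one another. At ZT 24 the single libraries had 8.66 CPM on AIN93G, the lowest of all, and 25.7 CPM on the HFD.

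Irs2 was the only member that passed the test of time of day on the HFD over ZT 0 to ZT 20, in which 5.28% of all genes passed. Its range between group means was 1.72 on the log2 scale, against a median of 0.52 over all genes, with an adjusted p of 0.0417 by edgeR. The adjusted p was 0.00103 by DESeq2 and 0.0208 by edgeR without ZT 12. Leaving out 1 library at a time gave adjusted p-values of 0.0231 to 0.122 for Irs2 by edgeR, and the call was lost in 9 of 18 cases, those of HFD ZT 0 replicates 2 and 3, ZT 4 replicates 1 and 2, ZT 8 replicates 1 and 3, ZT 12 replicate 1 and ZT 16 replicates 1 and 3. When a 24 h cosine was fitted to the same 18 HFD libraries, Irs2 had a peak-to-trough range of 1.24 on the log2 scale with a peak at ZT 22.1, and the adjusted p was 0.0817 by edgeR (0.0845 without ZT 12, 0.00763 without the count filter). Leaving out 1 library at a time gave adjusted p-values for Irs2 in the cosine test of 0.0377 (without HFD ZT 12 replicate 3) to 0.168 by edgeR. With all 18 libraries no member passed in the cosine test, in which 8.52% of all genes passed.

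The step of Irs2 over the light phase had a like size on both diets. From ZT 0 to ZT 8 the difference was -1.27 (SE 0.41, 95% interval -2.08 to -0.46) on AIN93G and -1.39 (SE 0.41, 95% interval -2.20 to -0.58) on the HFD on the log2 scale. The adjusted p-values for Irs2 were 0.116 and 0.0785 by edgeR and 0.0395 and 0.0184 by DESeq2, and 0.000161 and 4.93e-05 by edgeR without the count filter. Among the 12000 genes, 1.61% passed between these times on AIN93G and 1.9% on the HFD by edgeR, and no member was among them. At ZT 4 every HFD library of Irs2 lay below every AIN93G library, as was the case for 3.7% of all genes, with a difference of -0.76 (SE 0.41, adjusted p of 1.00 by edgeR), which was -0.47 without AIN93G ZT 4 replicate 2 and -1.01 without HFD ZT 4 replicate 3. Over ZT 0 to ZT 12 the diets differed in Irs2 by 0.01 (SE 0.20, 95% interval -0.39 to 0.41). In the test of whether the diet difference changed with time, the Irs2 differences spanned 1.09 (adjusted p of 0.902 by edgeR).

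Irs1, the other main substrate, was the member with the lowest p for a diet difference that varied with time. At ZT 0, Irs1 had 24.0, 20.2 and 18.7 CPM on AIN93G and 16.7, 16.9 and 18.2 CPM on the HFD, all 3 below the AIN93G libraries, a pattern shared by 6.52% of all genes. At ZT 8 the AIN93G libraries had 15.0, 10.4 and 8.28 CPM and the HFD libraries 12.9, 19.3 and 25.7 CPM. At ZT 12 the AIN93G libraries had 12.0, 28.8 and 21.9 CPM and the HFD libraries 6.63, 12.3 and 13.6 CPM. The direction between diets was opposite at ZT 8 and ZT 12, and the groups overlapped at both times. At ZT 12 the 3 libraries with low Arntl, 1 of AIN93G and 2 of the HFD, had 6.63 to 12.3 CPM of Irs1 and the other 3 had 13.6 to 28.8 CPM, a separation downward with low Arntl that 14.2% of all genes shared, and the diets held these Arntl levels in unequal numbers. At ZT 4, where the groups also overlapped, Irs1 had 11.6, 26.3 and 20.98 CPM on AIN93G and 30.4, 15.2 and 15.1 CPM on the HFD. On the HFD it had 16.2, 24.2 and 13.4 CPM at ZT 16 and 18.1, 27.3 and 12.1 CPM at ZT 20, and at ZT 24 the single libraries had 13.9 CPM on AIN93G and 11.6 CPM on the HFD. The fitted difference in Irs1 was 0.78 (SE 0.37) at ZT 8 and -0.95 (SE 0.37) at ZT 12 on the log2 scale. Their adjusted p-values were 0.419 and 0.612 by edgeR, and 0.0167% of genes (2) passed at ZT 8 by edgeR, with 1398 genes at an unadjusted p under 0.05 and 30 passing by DESeq2. For the interaction of diet with time, Irs1 had an unadjusted p of 0.0240 and an adjusted p of 0.819 by edgeR. No gene passed the interaction by edgeR (0% of 12000), 722 had an unadjusted p under 0.05, and 5 passed by DESeq2. Without the count filter Irs1 passed the interaction by edgeR (adjusted p of 0.0221), 1 of 96 genes that did. Without ZT 12 the Irs1 differences spanned 1.07 instead of 1.73 (adjusted p of 0.999 by edgeR). In GENCODE M21, 30.9% of the exonic bases of Irs1 (2822) also belong to Gm9747 on the opposite strand, and reads of such pairs cannot be told apart without a stranded count.

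**Figure D2:**
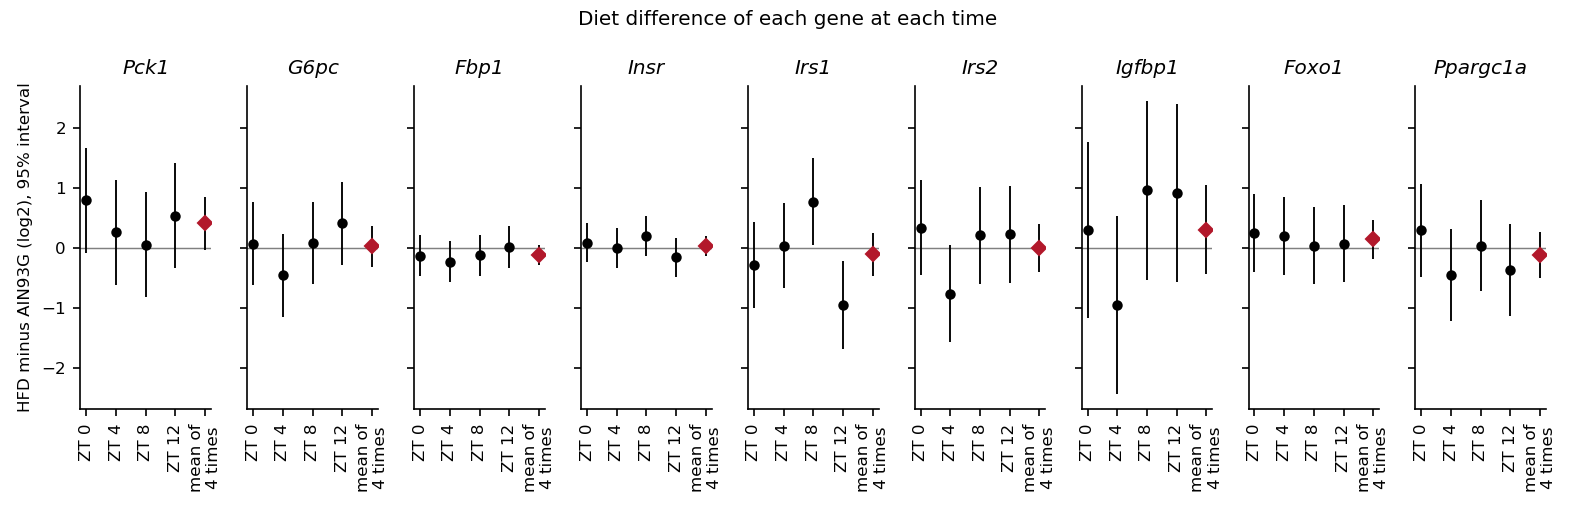
Difference between diets (HFD minus AIN93G, log2, linear axis) of each gene at ZT 0, 4, 8 and 12 (black points) and averaged over these 4 times (red diamonds), from 3 liver libraries per diet and time. Bars are 95% intervals. The Irs1 points lie above 0 at ZT 8 and below 0 at ZT 12, and the averaged difference has an interval that spans 0 in all 9 genes.

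No member passed at a single time point. By edgeR, 0 genes passed at ZT 0, ZT 4 and ZT 12 (0% each), with 484, 301 and 896 genes at an unadjusted p under 0.05, and DESeq2 gave 13 at ZT 0, 0 at ZT 4 and 3 at ZT 12. The widest intervals were those of Igfbp1. Its diet difference was 0.97 (SE 0.76) at ZT 8, 0.92 (SE 0.76) at ZT 12 and -0.95 (SE 0.76) at ZT 4 on the log2 scale, and each interval included 0. Leaving out 1 library moved these values of Igfbp1 to between -0.09 (without HFD ZT 8 replicate 2) and 1.63 (without AIN93G ZT 8 replicate 1) at ZT 8 and to between -1.38 (without HFD ZT 4 replicate 2) and -0.28 (without AIN93G ZT 4 replicate 2) at ZT 4.

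Igfbp1 had the largest fold between its lowest and highest liver library, 15.5 and 372 CPM (23.9-fold). At ZT 0, Igfbp1 had 238, 331 and 156 CPM on AIN93G and 222, 300.0 and 372 CPM on the HFD. At ZT 8 it had 77.9, 41.2 and 15.5 CPM on AIN93G and 62.9, 179 and 21.7 CPM on the HFD. Every library of ZT 8 lay below every library of ZT 0 of its diet, as was the case for 11.8% of all genes on AIN93G and 11.1% on the HFD. The difference was -2.43 (SE 0.79, 95% interval -3.98 to -0.88) on AIN93G and -1.76 (SE 0.77, 95% interval -3.27 to -0.25) on the HFD on the log2 scale. Adjusted p-values for Igfbp1 were 0.116 and 0.228 by edgeR, so that neither passed. Without the count filter they were 3.3e-06 and 0.00201 by edgeR at differences of -2.44 and -1.75. That fit drew its shared spread from 30352 genes in place of 12000, and the reason for its lower p-values was not tested. Without HFD ZT 8 replicate 2 the HFD difference was -2.82 (adjusted p of 0.0737 by edgeR). Leaving out each library in turn gave -2.82 to -1.30 on the HFD, with adjusted p-values up to 0.509 by edgeR. On AIN93G it gave -3.09 to -2.02 (adjusted p of 0.0931 to 0.341 by edgeR). At ZT 4, Igfbp1 had 96.0, 252 and 86.3 CPM on AIN93G and 23.1, 115 and 87.6 CPM on the HFD, with overlap. At ZT 12 it had 159.8, 68.1 and 121 CPM on AIN93G and 277, 194 and 189 CPM on the HFD. At this time every HFD library was above every AIN93G library, as was the case for 5.05% of genes. On the HFD it had 109, 154 and 41.6 CPM at ZT 16 and 34.9, 35.4 and 289 CPM at ZT 20, where replicate 3 was far above the others. The same library, HFD ZT 20 replicate 3, also had the highest Irs2, G6pc and Pck1 of its group. At ZT 24 the single libraries had 29.0 CPM of Igfbp1 on AIN93G and 210.5 CPM on the HFD.

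Besides Irs2, Igfbp1 and G6pc, the libraries of ZT 0 and ZT 8 separated for other members. Irs1 was lower at ZT 8 on AIN93G by -0.90 (SE 0.37, adjusted p of 0.225 by edgeR), and Pck1 was lower on the HFD by -0.27 (SE 0.45, adjusted p of 0.799 by edgeR), both without overlap, as were 11.8% and 11.1% of all genes in this direction. Ppargc1a was higher at ZT 8 without overlap on both diets, as was the case for 11.8% of genes on AIN93G and 10.1% on the HFD. Without the count filter Irs1 (adjusted p of 0.0175) and Ppargc1a (0.0179) passed on AIN93G by edgeR. The steps on AIN93G and on the HFD use separate libraries, but the diet comparisons at ZT 0 and ZT 8 share them. No member passed in the HFD comparisons of ZT 16 with ZT 4, ZT 20 with ZT 8, ZT 16 with ZT 8 or ZT 0 with ZT 20, in which 1.59%, 2.42%, 8.42% and 0.00833% of genes passed. In the test of time on AIN93G over ZT 0 to ZT 12, 0.758% of genes and no member passed. The widest ranges there were 2.43 for Igfbp1 (adjusted p of 0.438 by edgeR) and 1.27 for Irs2 (adjusted p of 0.295 by edgeR), against a median of 0.32 over all genes. Without ZT 12 the adjusted p-values were 0.244 for Igfbp1 and 0.171 for Irs2 by edgeR. Without the count filter Igfbp1 (3.3e-05), Irs2 (6.86e-05), Irs1 (0.0371) and Foxo1 (0.0401) passed this test by edgeR, and G6pc (0.00195) and Igfbp1 (1.99e-05) passed that of time on the HFD.

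Ppargc1a, the coactivator, was among the least abundant members, with 5.63 to 28.4 CPM. At ZT 0, Ppargc1a had 11.4, 9.91 and 7.51 CPM on AIN93G and 7.93 to 14.8 CPM on the HFD. At ZT 8 it had 17.04, 26.6 and 13.1 CPM on AIN93G and 18.4, 19.1 and 21.1 CPM on the HFD. Every library of ZT 8 lay above every library of ZT 0 of its diet. The difference was 0.97 (SE 0.39, adjusted p of 0.212 by edgeR) on AIN93G and 0.72 (SE 0.39, adjusted p of 0.334 by edgeR) on the HFD on the log2 scale. The highest of these libraries, AIN93G ZT 8 replicate 2, had a summed level of 944 CPM for 4 skeletal muscle genes, against at most 81.4 CPM in the other liver libraries. The same library had 61.6 CPM of Foxo1, against 29.7 and 29.5 CPM in the others of its group. The part of muscle RNA in these levels was not tested, and the AIN93G difference without this library was 0.65 (adjusted p of 0.595 by edgeR). At ZT 12, Ppargc1a had 28.4, 10.03 and 12.8 CPM on AIN93G and 13.2, 18.3 and 8.28 CPM on the HFD, and AIN93G replicate 1 was the highest of all liver libraries. On the HFD it had 10.98, 18.9 and 5.63 CPM at ZT 16 and 15.1, 15.8 and 16.2 CPM at ZT 20, groups of unlike spread. Averaged over the 4 shared times the diets differed in Ppargc1a by -0.11 (SE 0.19, 95% interval -0.50 to 0.27) on the log2 scale.

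Foxo1, the transcription factor held back by insulin, had 26.3 to 87.7 CPM and did not pass the test of diet, with a difference of 0.15 (SE 0.17, 95% interval -0.18 to 0.47) on the log2 scale. At ZT 0, Foxo1 had 33.5, 41.3 and 27.2 CPM on AIN93G and 43.9, 43.0 and 34.6 CPM on the HFD. At ZT 12 it had 87.7, 31.1 and 39.2 CPM on AIN93G and 61.7, 75.6 and 29.3 CPM on the HFD. Within each diet of ZT 12, Foxo1 thus had both low and high libraries. Apart from AIN93G ZT 8 replicate 2, the libraries of ZT 4, 8, 16 and 20 had 26.3 to 48.03 CPM of Foxo1. At ZT 24 the single libraries had 80.3 CPM on AIN93G and 69.3 CPM on the HFD.

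The high Foxo1 and Pck1 libraries of ZT 12 were the same 3 in which Arntl was low, AIN93G replicate 1 and HFD replicates 1 and 2. These 3 had 61.7 to 87.7 CPM of Foxo1 and 4615 to 5709 CPM of Pck1, and the 3 with high Arntl had 29.3 to 39.2 CPM and 1000.4 to 2597 CPM. The 2 liver libraries of ZT 24, with Arntl at 0.782 and 1.15 CPM, also had high Foxo1 and Pck1. The 6 libraries of ZT 8, with Arntl at 1.22 to 2.48 CPM, had 2504 to 3487 CPM of Pck1 and 29.5 to 61.6 CPM of Foxo1, below the 3 low-Arntl libraries of ZT 12 in both genes. Ppargc1a was also higher in the 3 with low Arntl (13.2 to 28.4 CPM against 8.28 to 12.8 CPM) and Irs1 lower (6.63 to 12.3 CPM against 13.6 to 28.8 CPM), both without overlap, while the other 5 members overlapped. Of all genes, 12.4% were higher and 14.2% lower without overlap in the 3 with low Arntl. The split by Arntl is a description and was given no test, because it is read from the same libraries.

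**Figure D3:**
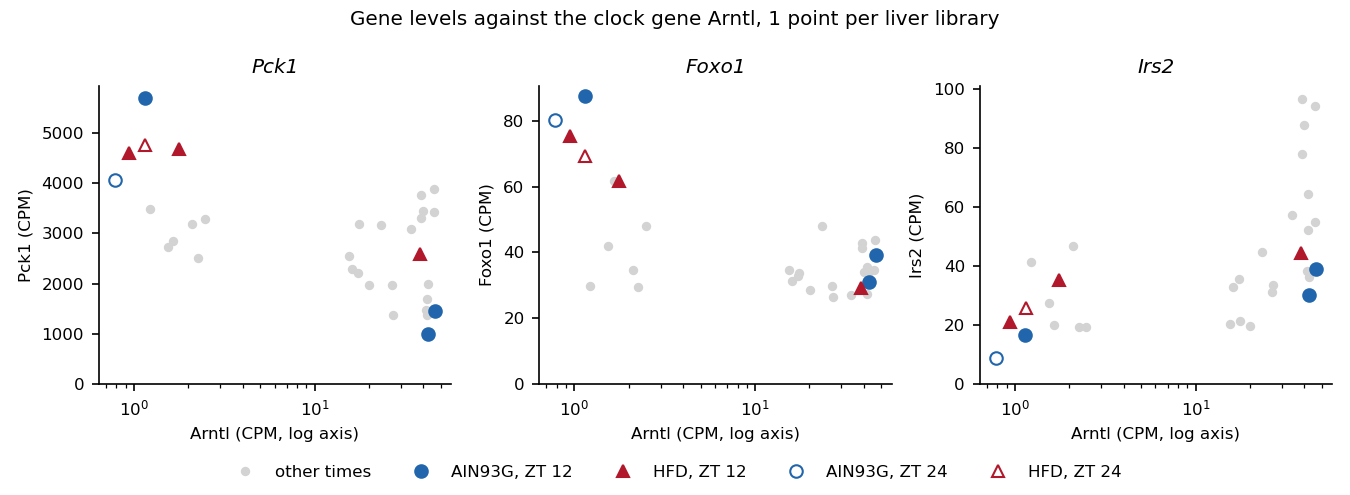
Levels (CPM, linear axes from 0) of Pck1, Foxo1 and Irs2 against Arntl (CPM, log axis) in the 32 liver libraries, 1 point each. Filled symbols are ZT 12, open symbols are ZT 24 and grey points are the other times. The ZT 12 libraries fall into 3 with low Arntl and high Pck1 and Foxo1 and 3 with high Arntl and low Pck1 and Foxo1, while Irs2 was 16.7 to 35.2 CPM in the former and 30.03 to 44.4 CPM in the latter.

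By the labels, the dark libraries of ZT 12 (4) were compared with the light ones (2), adjusted for diet. Foxo1 was 1.13 (SE 0.29, 95% interval 0.55 to 1.71) higher in the dark libraries on the log2 scale, with an adjusted p of 0.0532 by edgeR and 0.00548 by DESeq2. Pck1 was 1.31 (SE 0.44, adjusted p of 0.135 by edgeR) higher, Ppargc1a 0.98 (SE 0.39, adjusted p of 0.219 by edgeR) and Insr 0.43 (SE 0.16, adjusted p of 0.179 by edgeR). No member passed by edgeR, where 1.28% of genes passed. Without the count filter Foxo1 (1.43e-06), Pck1 (2.18e-06), Ppargc1a (0.00156) and Igfbp1 (0.0281) passed by edgeR, and with at least 25 counts in every liver library Foxo1 did (0.0485). Without AIN93G ZT 12 replicate 3, the dark library with high Arntl, the differences were 1.34 for Foxo1 and 1.52 for Pck1. Both then passed, but the labels divide the 5 libraries left exactly as Arntl does, so that these values restate the split and are no test of it. Leaving out each of the 6 libraries in turn gave 0.84 to 1.34 for Foxo1 and 0.71 to 1.84 for Pck1. In GENCODE M21, 7.78% of the exonic bases of Foxo1 overlap Gm20402 on the opposite strand, and 2.56% of those of Irs2 overlap 9530052E02Rik.

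Some members varied together from library to library. Across the 30 liver libraries of ZT 0 to ZT 20, Pearson's r of log2 CPM was 0.70 between G6pc and Igfbp1, 0.65 between Irs2 and Igfbp1 and 0.56 between G6pc and Irs2. After the mean of each diet and time was subtracted, these were 0.57, 0.57 and 0.56. The pairs Foxo1 and Ppargc1a (0.59, and 0.80 within groups), Pck1 and Foxo1 (0.64 and 0.68) and Insr and Ppargc1a (0.69 and 0.70) also varied together. The values within groups include ZT 12, where each diet held libraries of both Arntl levels, and they were not computed without it. Without ZT 12 the r before the means were subtracted was 0.53 for Foxo1 and Ppargc1a, 0.51 for Pck1 and Foxo1 and 0.63 for Insr and Ppargc1a. For the first 3 pairs it was 0.73, 0.80 and 0.65. Without the 2 libraries farthest from the median of the first-named gene, the r was 0.48 for Foxo1 and Ppargc1a. It was 0.59 to 0.70 for the other pairs but G6pc and Irs2 (0.58). Libraries far from the median of the second gene were kept. Pck1 and Igfbp1, with an r of 0.38, had 0.55 within groups (0.69 in the 18 HFD libraries and 0.11 in the 12 AIN93G libraries before the means were subtracted). Pck1 and G6pc, the first and the last to act of the enzymes followed here, had an r of 0.25. It was 0.44 without ZT 12, 0.03 in the 12 AIN93G libraries and 0.50 in the 18 HFD libraries. The values of 2 genes in a library share its depth and its scaling, and these coefficients are descriptions.

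**Figure D4:**
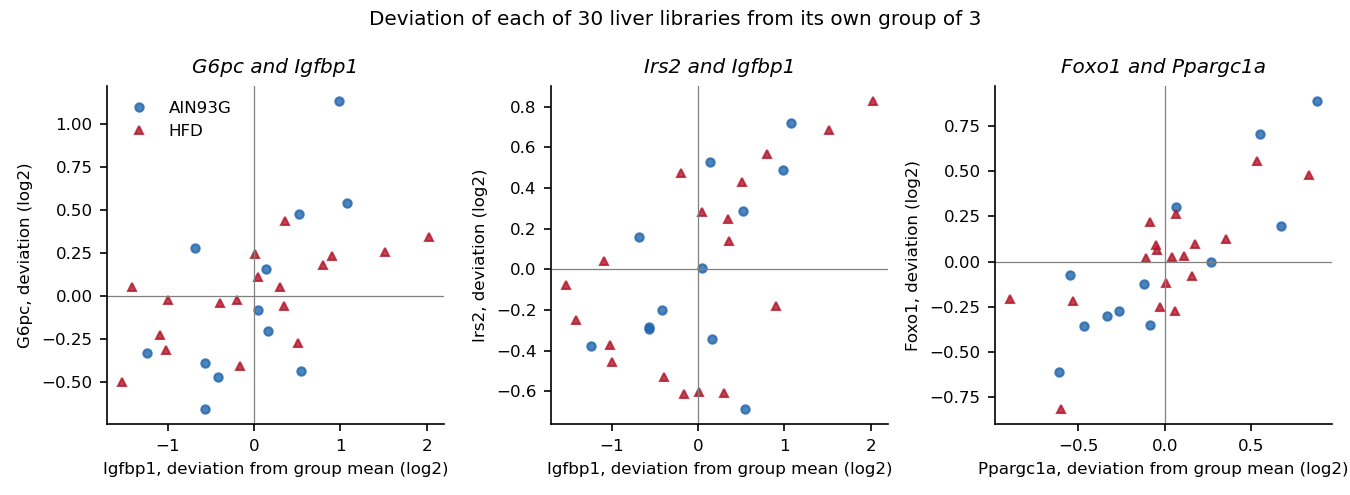
Deviation of each of the 30 liver libraries of ZT 0 to ZT 20 from the mean of its own diet and time (log2, linear axes) for 3 pairs of genes. Circles are AIN93G and triangles are HFD. Libraries with more Igfbp1 than their group tended to have more G6pc and Irs2 (r of 0.57 and 0.57), and those with more Ppargc1a had more Foxo1 (r of 0.80).

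Among all 12000 genes, the 3 with the pattern most like Pck1 over these 30 libraries were Lpin2 (r of 0.82), Pim3 (0.80) and Tnfrsf1b (0.78). Those most like Igfbp1 were Ip6k2 (0.86), Irf2bp2 (0.81) and Depp1 (0.75). G6pc was most like Arap3, Igfbp1 and Otulinl (0.70 each), and Irs2 was most like Tmem140 (0.74), Rnf125 (0.73) and Wrnip1 (0.73). Igfbp1 was thus the only member among the 3 nearest genes of any of these 4.

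Other genes of the pathways were examined as lists. With diet over ZT 0 to ZT 12, 0 of 24 other enzymes and carriers of gluconeogenesis, 0 of 30 genes of its transcriptional and hormonal control, 0 of 41 insulin signalling genes, 0 of 8 insulin-like growth factors and binding proteins and 0 of 18 other genes raised by fasting or FOXO1 passed by edgeR. In this test 0.108% of all 12000 genes passed, and 1007 had an unadjusted p under 0.05. At that unadjusted level these lists held 4, 2, 1, 0 and 2 genes. Of 17 genes raised by insulin in liver, 3 were lower on the HFD and none was higher, where 0.0667% of all genes were lower. They were Scd1, the stearoyl-CoA desaturase (-1.87, SE 0.36, adjusted p of 0.0303), Acaca, the acetyl-CoA carboxylase (-1.03, SE 0.20, adjusted p of 0.0303), and Pklr, the liver pyruvate kinase that opposes gluconeogenesis (-0.93, SE 0.18, adjusted p of 0.0341). Without ZT 12 these were -2.09, -1.14 and -1.13, and all 3 passed. The median of the 17 log2 differences was -0.56, against -0.01 over all genes, and 9 of the 17 had an unadjusted p under 0.05. This list was chosen with earlier results of these data known. Its share and median therefore describe the list and are no test of it against all genes. Lower Acaca and Scd1 on the HFD had already been reported by the study from PCR.

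Over the day on the HFD, 4 of 24 other gluconeogenic enzymes and carriers passed by edgeR, namely Gpi1 (range of 0.96 on the log2 scale), Pgk1 (0.59), Mdh2 (0.48) and Eno1 (0.76), which also serve glycolysis or the citric acid cycle, where 5.28% of all genes passed. Their list had a median range of 0.52, equal to that of all genes at this precision. Of the 30 control genes 2 passed, the clock repressor Cry1 (2.95), which also restrains glucagon signalling, and the kinase subunit Prkar2a (0.50), a share near that of all genes. None of the 41 insulin signalling genes (13 at an unadjusted p under 0.05) and none of the 8 growth factor and binding protein genes (1 unadjusted) passed this test by edgeR, where 3017 of all 12000 genes had an unadjusted p under 0.05. Of the 18 fasting or FOXO1 genes 2 passed, Cdkn1a (3.20) and Lpin1 (3.85), and the list had a median range of 1.32. Of the 17 insulin-raised genes 7 passed, led by Thrsp (3.84), Ppp1r3b (1.59), Elovl6 (2.95), Gys2 (1.53) and Mlxipl (0.79), with a median of 1.54. By the 24 h cosine where 8.52% of all genes passed, the same lists had 8, 3, 4, 0, 5 and 12 genes passing, the 4 of insulin signalling being Trib3, an inhibitor of AKT (2.08), Grb14, which blocks the receptor kinase (0.55), Prkci (0.53) and Ceacam1 (0.54). The shares of the control and the insulin signalling lists were near that of all genes. Without ZT 12, Mdh2 and Lpin1 lost the call over the day (adjusted p of 0.0818 and 0.105 by edgeR), as did Lpin1 (0.419), Prkci (0.130) and Ceacam1 (0.189) by the cosine.

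Between ZT 0 and ZT 8, Cdkn1a, a cell cycle inhibitor and FOXO1 target, fell by 3.09 on AIN93G (adjusted p of 0.0253) and by 3.20 on the HFD (adjusted p of 0.0205) on the log2 scale by edgeR. Gys2, the liver glycogen synthase, rose by 1.48 on AIN93G (adjusted p of 0.0399) and by 1.46 on the HFD (adjusted p of 0.0442). Ccng2 (-1.84), Ppp1r3b (-1.30) and Ppp1r3c (-1.94) fell on AIN93G, Thrsp rose on the HFD (2.27), and Cry1 fell on both diets (-2.39 and -1.80). On AIN93G these were 3 of 17 insulin-raised, 2 of 18 fasting or FOXO1 and 1 of 30 control genes, beside 1.61% of all genes, and on the HFD 2 of 17, 1 of 18 and 1 of 30, beside 1.9%. Leaving out 1 library at a time gave 20 to 202 genes passing between ZT 0 and ZT 8 on AIN93G and 10 to 388 on the HFD. Over ZT 0 to ZT 12 on AIN93G, Cry1 (2.39), Ppp1r3b (1.64) and Ppp1r3c (2.08) passed, with these ranges on the log2 scale (1 of 30 control and 2 of 17 insulin-raised genes, beside 0.758% of all genes).

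Between ZT 8 and ZT 16 on the HFD, 4 of the 41 insulin signalling genes passed, a share near the 8.42% of all genes. The kinase Akt1 (0.51, SE 0.14, adjusted p of 0.0242 by edgeR) and the phosphatase Ptpn1 (0.52), which acts on the receptor, were higher at ZT 16, and Enpp1 (-0.55), an inhibitor of the receptor, and Prkce (-0.68) were lower. The list had a median of -0.11, against 0.01 over all genes. In the same comparison Pgk1 (0.59), Pgam1 (0.47), Mdh2 (0.48) and Gpi1 (0.75) of the enzymes and carriers, Cry1 (2.50) and Prkar2a (0.43) of the control genes and Ppp1r3b (1.59), Mlxipl (0.79), Pnpla3 (4.05) and Elovl6 (2.24) of the insulin-raised genes were higher, and Klf9 (-1.18) was lower. These were 4 of 24 enzymes and carriers, 3 of 30 control and 4 of 17 insulin-raised genes, beside the same 8.42%. Between ZT 4 and ZT 16, Thrsp (3.25), Elovl6 (2.95), Ppp1r3b (1.06), Eno1 (0.76), Gpi1 (0.80) and Cry1 (2.01) were higher and Grb14 (-0.63) lower at ZT 16. These were 3 of 17 insulin-raised genes, 2 of 24 enzymes and carriers, 1 of 30 control and 1 of 41 insulin signalling genes, beside 1.59% of all genes. Between ZT 8 and ZT 20, Ppp1r3b (1.33), Ppp1r3c (1.76), Pgk1 (0.50), Cry1 (2.95) and Foxa2 (1.31), a forkhead factor, were higher at ZT 20. These were 2 of 17 insulin-raised genes, 1 of 24 enzymes and carriers and 2 of 30 control genes, beside 2.42% of all genes. No list gene passed between ZT 20 and ZT 0, in the diet comparisons at single times or in the interaction by edgeR, where 11, 7 to 20 and 12 had an unadjusted p under 0.05, beside 756, 301 to 1398 and 722 of the 12000 genes. For diet at ZT 0, 4, 8 and 12, these included 9, 4, 2 and 1 of the 17 insulin-raised genes. All 12000 genes held 484, 301, 1398 and 896. The medians of the 17 log2 differences were -1.26, -0.44, -0.60 and -0.40, in a list chosen with earlier results of these data known.

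Among the dark against the light libraries of ZT 12, 4 of 30 control, 2 of 18 fasting or FOXO1 and 1 of 17 insulin-raised genes passed, beside 1.28% of all genes, and all 7 were higher. Lpin1, a phosphatidate phosphatase of the fasting response, had the largest difference (4.06, SE 0.82, adjusted p of 0.0221 by edgeR). Ppargc1b (2.60), Per1 (2.31), Gys2 (1.52), Foxo3 (1.23), Ppara (1.22) and Cry2 (1.20) were the others. For the labelled phase at ZT 12, all 7 calls ended without AIN93G replicate 1, HFD replicate 2 or HFD replicate 3, where 3, 0 and 0 genes passed by edgeR (1096, 1470 and 901 at an unadjusted p under 0.05). Without AIN93G replicate 2, Gys2 and Cry2 alone of the 7 passed, and without HFD replicate 1 Lpin1, Gys2, Ppara and Ppargc1b did. Per1 had 66.8 and 86.3 CPM in the liver libraries of ZT 24 and 77.96 to 90.4 CPM in the 3 low-Arntl libraries of ZT 12.

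**Figure D5:**
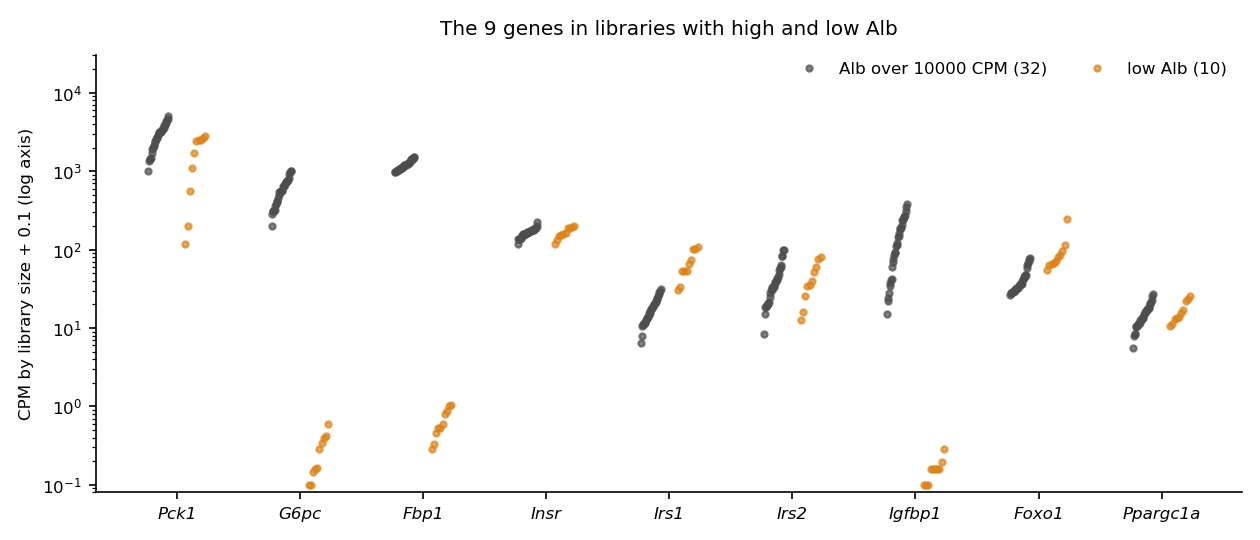
Level (CPM by library size plus 0.1, log axis) of the 9 genes in the 32 libraries with Alb over 10000 CPM (grey) and the 10 with low Alb (orange), each sorted from low to high. G6pc, Fbp1 and Igfbp1 lie near the floor of the low-Alb libraries, whereas the other 6 genes are present in both kinds.

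In the 10 libraries with low Alb, the members differed in their level against liver, also among the enzymes, the substrates and the regulators. G6pc had at most 8 counts, Fbp1 at most 16 and Igfbp1 at most 3, and all 10 libraries were below the lowest liver library for these genes, as was the case for 11.5% of the 12000 genes. Pck1 had 119 to 2777 CPM by library size, with 3 of 10 below the lowest liver library (1019 CPM), and 19.5% of all genes had 3 or more below. Irs1 was higher than in liver, with 30.6 to 107 CPM and 9 of 10 libraries above the highest liver library (31.4 CPM), where 36.9% of all genes had 9 or more above. Foxo1 had 55.2 to 242 CPM, and 5 of 10 were above the highest liver library (78.5 CPM), where 54.3% of all genes had 5 or more above. Insr, Irs2 and Ppargc1a lay inside the range of the liver libraries in all 10. At ZT 16 and ZT 20 all AIN93G libraries had low Alb and all HFD libraries were liver, so that diet and the kind of library cannot be told apart there, whereas at ZT 24 each diet had 2 libraries with low Alb and 1 of liver. With all 42 libraries as labelled, averaged over all 7 times, the diet difference would be 3.94 for G6pc, 3.28 for Fbp1, 3.79 for Igfbp1 and 0.80 for Pck1 on the log2 scale. The adjusted p-values would be 0.000354, 0.000468, 0.000365 and 0.0203 by edgeR. Irs1 (-0.55, adjusted p of 0.0145) would pass in the other direction and Irs2 (0.45, adjusted p of 0.0491) in the same one, and 5586 of 13394 genes would pass.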

How the data were processed

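RNA-seq of 42 libraries labelled as mouse liver was used, 3 per diet at each of 7 times. The deposited values are whole-number counts of reads for each gene, without normalization. The submitters' processing notes name fastp, STAR, HTSeq 0.6.1, STAR-Fusion, DESeq and the build mm10, and the strand setting is not given in the sources used here. Diet, time and phase were taken from the sample labels, and replicates were numbered in accession order. Libraries with Alb over 10000 CPM (32) were kept. Totals of these were 14592481 to 19815356 counts. All 30 pairs of replicates differed beyond counting noise (chi-square per degree of freedom of 17.8 to 154), so that no pair was counted as 1 library.

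Counts were scaled by TMM and modelled in R 4.3.3 by edgeR 4.0.16 (quasi-likelihood fit, F-test) with 1 mean per diet and time. Where the mean count over the liver libraries reached 25, a gene was tested (12000 genes) with Benjamini-Hochberg adjustment, and a gene passed at an adjusted p under 0.05. Unless DESeq2 is named, adjusted p-values are from edgeR. Intervals are the difference and its SE under a normal approximation at 95%, and single log2 values used a prior count of 2. Tests of time give the widest difference between group means. DESeq2 1.42.0, library size scaling, other count filters, fits without ZT 12, with the labelled phase as a term, of 6 libraries alone and of all 42 libraries, and leaving out each library were the alternatives. DESeq2 p-values of fits that did not converge were set to missing. Scripts were tested on simulated data. Promoter sequences are from RefSeq on GRCm38.p6, and gene models from GENCODE M21.

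All members are described. From each list, up to 5 genes with the smallest adjusted p under 0.05 per comparison are named, and for Pck1, G6pc, Igfbp1 and Irs2 the 3 genes of highest r. The members and the lists were chosen with earlier results of these data known.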

Additional observations from a re-analysis of the deposited data

Results flagged for a closer look

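Irs1 had a median of 59.5 CPM by library size in the 10 libraries with low Alb, which enter the comparisons of diet and time in no fit but that of all 42 libraries, against a median of 16.8 CPM in the 32 liver libraries. The signal was singled out because it lies in data outside the main measurement and above the liver level in 9 of 10 libraries, as was the case in 9 or more for 36.9% of all genes. The summed level of 8 adipocyte genes was 22853 to 34519 CPM in these libraries and 22.6 to 171 CPM in liver, and its part in the Irs1 level was not tested.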

How the results depend on the processing

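No paired analysis was possible by replicate number because these numbers follow accession order and do not come from the labels. Some library titles of different times of 1 diet share a stem whose meaning the labels do not give, and a fit with the stem as a block was not run. Of 2160 alternative values of the members, 48 passed, of which 19 came from the fit without a count filter and 6 from the fit of all 42 libraries. Among the genes named, 3173 of 3568 alternative values stayed on the same side of the threshold, 360 lost the call, 33 gained it, and 2 reversed, both with all 42 libraries (Fbp1, 3.28, and Pklr, 3.20). Of the 3173, 106 values that passed in neither fit changed sign.

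With DESeq2 the numbers of genes passing were 83 for diet, 5 for the interaction, 13, 30 and 3 for diet at ZT 0, 8 and 12, 1647 and 278 for time on the HFD and on AIN93G, 1672 for the cosine, 520, 429, 573 and 15 for ZT 8 against ZT 0, ZT 16 against ZT 4, ZT 20 against ZT 8 and ZT 0 against ZT 20 on the HFD, 428 for ZT 8 against ZT 0 on AIN93G and 465 for the labelled phase. Without a count filter (30352 genes) they were 229 for diet, 96 for the interaction, 51, 19, 175 and 75 for diet at ZT 0, 4, 8 and 12, 1734 and 870 for time on the HFD and on AIN93G, 630, 473, 643 and 51 for the same HFD comparisons, 771 for AIN93G and 869 for the phase. Scaling by library size gave 22 for diet and 3 for ZT 0 against ZT 20. At least 25 counts in every liver library (10348 genes) gave 17 for time on AIN93G. Without ZT 12 (12027 genes) the numbers were 62 for diet, 1035 for time on the HFD and 434 for time on AIN93G. The fit of all 42 libraries gave 5586 for diet, and the fits of 6 libraries alone gave 9 at ZT 0 and 0 at ZT 8 (971 and 864 at an unadjusted p under 0.05 by edgeR). Apart from fewer or more genes and libraries, the cause of these shifts was not tested.

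Leaving out 1 library at a time gave 5 to 189 genes for diet (highest without AIN93G ZT 12 replicate 1), 0 to 2 for the interaction, 0 at ZT 0 and ZT 4, 0 to 37 at ZT 8 (without HFD ZT 8 replicate 2) and 0 to 96 at ZT 12 (without AIN93G ZT 12 replicate 1). It gave 309 (without HFD ZT 8 replicate 3) to 1164 (without HFD ZT 12 replicate 3) for time on the HFD, 12 (without AIN93G ZT 8 replicate 2) to 280 (without AIN93G ZT 12 replicate 1) for time on AIN93G and 677 (without HFD ZT 12 replicate 2) to 1708 (without HFD ZT 12 replicate 3) for the cosine. For steps on the HFD it gave 10 (without HFD ZT 8 replicate 3) to 388 (without HFD ZT 8 replicate 2) for ZT 8 against ZT 0, 44 (without HFD ZT 4 replicate 3) to 145 for ZT 16 against ZT 4, 81 (without HFD ZT 20 replicate 2) to 245 for ZT 20 against ZT 8, 308 (without HFD ZT 16 replicate 3) to 1020 for ZT 16 against ZT 8, and 1 for ZT 0 against ZT 20. For ZT 8 against ZT 0 on AIN93G it gave 20 (without AIN93G ZT 0 replicate 2) to 202, and for the labelled phase 0 (without HFD ZT 12 replicate 2 or 3) to 940 (without AIN93G ZT 12 replicate 3).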
